A study of Rattus norvegicus with 12 samples.

Results

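Cerebellins and delta glutamate receptors were followed through 5 probe sets in cultured rat cerebellar granule neurons. The 4 genes named were Cbln1, Cbln2, Cbln3 and Grid1, and a probe set was taken when the platform table gave it a single gene symbol that was one of these names. Cbln1 had 2 such probe sets, Cbln2 had 2 and Grid1 had 1, which made 3 genes with a probe set of 14217 named genes, and 5 probe sets of 31099. Cbln3 is not analysed here.

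Cerebellins are secreted proteins of the C1q family that organise synapses. Granule neurons release Cbln1 from their parallel fibres, where it binds presynaptic neurexins and postsynaptic delta glutamate receptors and so links both sides of the synapse onto Purkinje cells. Cbln3 is a cerebellin of granule cells that is secreted together with Cbln1, Cbln2 is a related ligand, and Grid1 encodes the delta receptor GluD1, which binds cerebellins. Cbln1 RNA in granule neurons is known to respond to neuronal activity.

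Total RNA was hybridised to 12 arrays in 4 groups of 3: low potassium (LK) and GW5074 (GW), each at 3 h and at 6 h. GW5074 is a small-molecule inhibitor of Raf kinase, and lowering potassium is a standard way to start death of these neurons in culture. Whether GW5074 was given in low potassium is left unsaid by the labels, and no culture in raised potassium is among the 12 arrays. Arrays carry letters A, B and C, which may or may not be separate cultures, so the p-values describe only how much these samples vary, which may be technical. With no untreated group, any shift between 3 h and 6 h cannot be told apart from one with time in culture. In bulk RNA, fewer cells of a type and less RNA per cell cannot be told apart either.

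The deposited value of a probe set is an intensity on a linear scale, and precision is limited by how few arrays there are. Principal component 1 carried 54.7% of the variance and separated the times. On a scale where 0 is the mean of the 3 h arrays and 1 that of the 6 h arrays, the 3 h arrays lay from -0.0844 to 0.115 and the A and C arrays at 6 h from 1.10 to 1.23. Both 6 h arrays of letter B stood apart, at 0.691 in low potassium and 0.628 with GW5074, so results at 6 h are also given without them. The title of the GW5074 6 h A array ends in a suffix unlike that of the others, with no meaning stated. All 12 markers listed for granule neurons were above the filter on dim probe sets, described below.

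Cbln1, the ligand that granule neurons supply to the parallel fibre synapse, was higher at 6 h than at 3 h in both treatments. Its brighter probe set, 1376873_at, read 1171, 1005 and 1365 in low potassium at 3 h (A, B and C) and 3200, 2501 and 3317 at 6 h. With GW5074 it read 1019, 974 and 1169 at 3 h and 3308, 2455 and 3467 at 6 h. Every 6 h array was above every 3 h array, and letter B was the lowest array of each group. The share of all probe sets that separate in this way was not counted, here or for Cbln2. The low-potassium means were 1180 ± 180 at 3 h and 3006 ± 441 at 6 h, and the GW5074 means 1054 ± 102 and 3077 ± 544 (SD, n = 3 each).

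The second Cbln1 probe set, 1390869_at, showed the same order of groups. It read 646, 487 and 720 in low potassium at 3 h and 2684, 1340 and 2677 at 6 h. With GW5074 it read 502, 475 and 568 at 3 h and 2732, 1429 and 2792 at 6 h. The 6 h arrays of letter B lay between the 3 h arrays and the other 6 h arrays. Means were 617 ± 119 at 3 h and 2233 ± 774 at 6 h in low potassium, and 515 ± 47.9 and 2318 ± 770 for GW5074 (SD, n = 3 each).

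**Figure D1:**
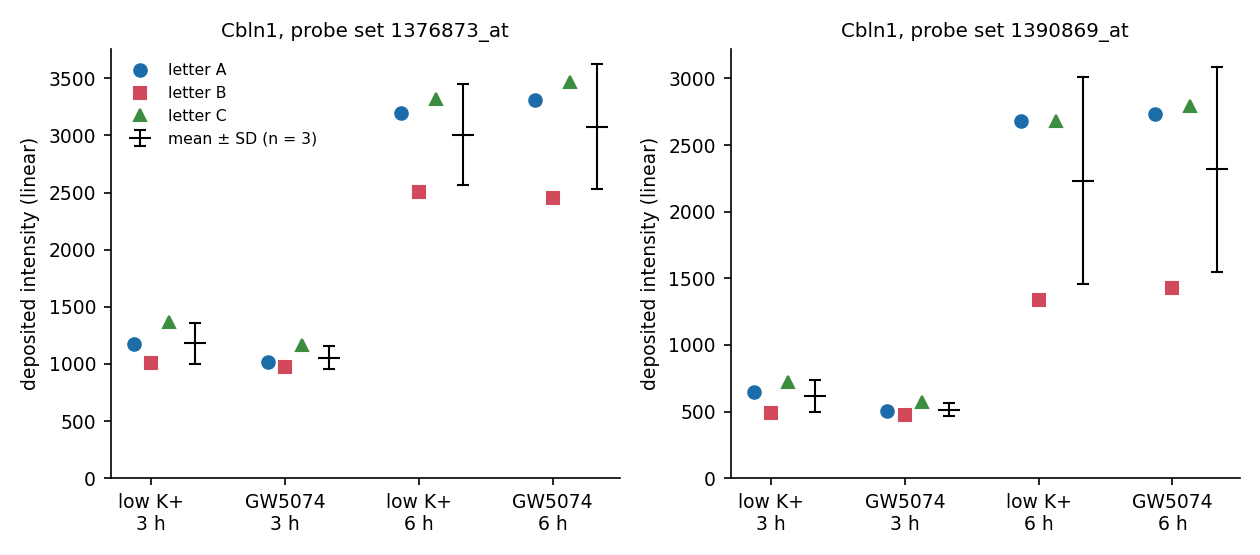
Deposited intensity of both Cbln1 probe sets on each of the 12 arrays, by treatment and time, with points for arrays marked by letter and bars for the group mean ± SD (n = 3). The 6 h arrays lie above the 3 h arrays in both treatments, and letter B is the lowest at 6 h.

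Fold changes and tests come from limma on log2(quantile-normalised value + 16), over the 18625 probe sets whose mean passed the 40th percentile of intensity, with p-values adjusted over all of them. Of the 5 member probe sets 3 passed, both of Cbln1 and 1 of Cbln2. From 3 h to 6 h in low potassium, 2 of the 3 rose and 1 fell, where 11.6% of all probe sets tested rose and 11.0% fell. With GW5074, 2 rose and 1 fell, against 13.1% and 11.9% of all tested. Changes over time were therefore common on these arrays.

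In low potassium, 1376873_at rose by 1.42 on the log2 scale (SE 0.16, 95% interval 1.08 to 1.77, 2.68-fold, limma adjusted p = 0.000259). The rise of 1390869_at was 1.82 (SE 0.28, 1.21 to 2.43, 3.54-fold, limma adjusted p = 0.00104). By size, these were the increases ranked 134 and 28 among the 18625 probe sets. With GW5074 the rises were 1.62 (1.27 to 1.96, 3.07-fold, limma adjusted p = 7.69e-05) and 2.13 (1.52 to 2.73, 4.36-fold, limma adjusted p = 0.000337), ranked 83 and 11.

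Without both 6 h arrays of letter B, 1376873_at rose by 1.56 in low potassium and 1.80 with GW5074, and 1390869_at by 2.17 and 2.47. The largest limma adjusted p among them was 7.34e-06. The Cbln1 rises still passed the test without the arrays that stood apart. Those arrays were the lowest at 6 h on both probe sets, so larger rises without them were built in and add no support.

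The probe sets of Cbln1 were compared with each other, a comparison chosen after the values were seen. The log2 ratio of 1376873_at over 1390869_at within an array was averaged over both arrays of a letter and time, which are treated as a pair. For A, B and C in turn it was 0.88, 0.98 and 0.95 at 3 h, then 0.27, 0.85 and 0.33 at 6 h. The means were 0.94 ± 0.05 and 0.48 ± 0.32 (SD, n = 3 pairs each), with an exact two-sided permutation p = 0.1, the smallest that 3 pairs against 3 allow. On single arrays at 6 h the ratio was 0.24 to 0.33 for those of letters A and C. For those of letter B it was 0.90 in low potassium and 0.79 with GW5074, within or next to the 3 h range of 0.81 to 1.03. Which transcripts each one reads was not tested.

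**Figure D2:**
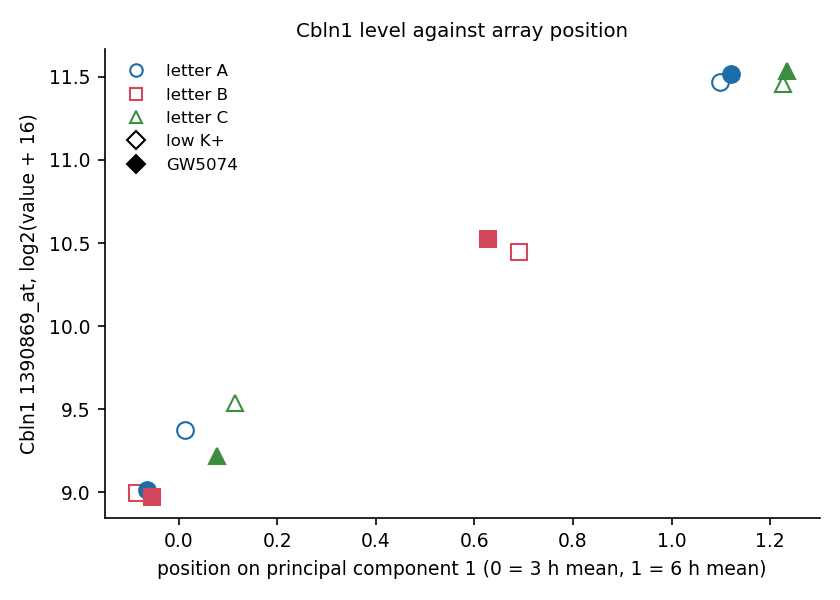
Level of Cbln1 1390869_at, log2(value + 16), on each array against the position of that array on principal component 1, where 0 is the mean of the 3 h arrays and 1 that of the 6 h arrays. The 6 h arrays of letter B, at 0.691 and 0.628, lie between the 3 h arrays and the other 6 h arrays.

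Cbln2, a related cerebellin, went the other way. Its probe set 1374280_at read 64.4, 128 and 106 in low potassium at 3 h and 49.3, 33.7 and 17.0 at 6 h. With GW5074 it read 73.4, 101 and 59.9 at 3 h and 17.9, 49.4 and 3.06 at 6 h. Every 6 h array was below the 3 h arrays of its treatment. Of the 12 arrays 3 were below 28.0, the 40th percentile of the probe sets' mean intensities. Those 3 were LK 6 h C, GW 6 h A and GW 6 h C. The probe set's mean passed the filter mainly through the 3 h arrays, so passing it adds no support to a fall.

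Cbln2 means in low potassium were 99.2 ± 32.1 at 3 h and 33.3 ± 16.1 at 6 h, and the GW5074 means 78.1 ± 21.0 and 23.5 ± 23.7 (SD, n = 3 each). The probe set fell by 1.25 on the log2 scale in low potassium (SE 0.38, -2.07 to -0.43, 2.38-fold, limma adjusted p = 0.0306). With GW5074 it fell by 1.39 (-2.20 to -0.57, 2.62-fold, limma adjusted p = 0.0174). Without both 6 h arrays of letter B the changes were -1.27 (limma adjusted p = 0.016) and -1.82 (0.00187). The letter B array was the highest with GW5074 at 6 h, so a larger fall there without it was built in and adds no support.

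The Cbln2 calls depended on single arrays. The low-potassium call ended without LK 3 h B (-1.07, limma adjusted p = 0.125), LK 3 h C (-1.19, 0.0767) or LK 6 h C (-1.03, 0.125). The GW5074 call ended without GW 3 h B (-1.21, 0.078), GW 6 h A (-1.38, 0.0566) or GW 6 h C (-0.94, 0.0766). With a pseudocount of 1 in place of 16 the changes were -1.61 and -2.25, and with 64 they were -0.76 and -0.72.

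The second Cbln2 probe set, 1396532_at, was below 28.0 on 12 of 12 arrays and was not tested. It read 17.5, 3.20 and 5.87 in low potassium at 3 h, and 22.3, 9.69 and 8.67 at 6 h. With GW5074 it read 7.26, 16.7 and 21.5 at 3 h and 14.7, 8.42 and 8.03 at 6 h. Its groups overlapped in both treatments, so the fall of Cbln2 was seen on 1 probe set.

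Grid1, which encodes the receptor GluD1, was also below 28.0 on 12 of 12 arrays. Its probe set 1369945_at read 18.8, 5.63 and 9.23 in low potassium at 3 h and 1.43, 4.16 and 1.07 with GW5074. At 6 h the low-potassium arrays read 21.1, 12.3 and 11.9, and those with GW5074 6.62, 1.16 and 18.9. At 3 h the highest GW5074 value, 4.16, was just below the lowest low-potassium value, 5.63, and the groups overlapped at 6 h. All of these are dim, and the share of all probe sets that separate in this way was not counted.

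The filter kept Grid1 out of the main test. In the fit without a filter, its difference at 3 h was -0.53 on the log2 scale (limma unadjusted p = 0.0532 and adjusted p = 1). With the letters as pairs these were 0.0504 and 0.853. At 6 h it was -0.35 (limma adjusted p = 0.988, paired 0.64). Neither difference was called.

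**Figure D3:**
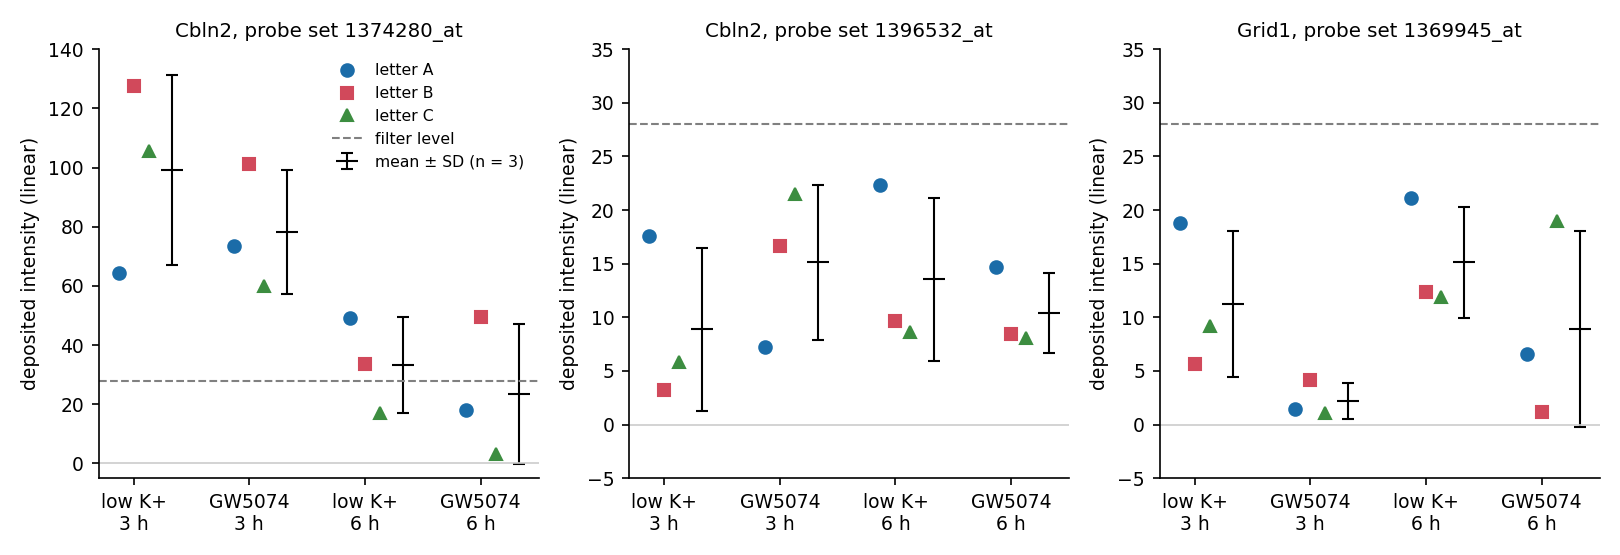
Deposited intensity of the Cbln2 and Grid1 probe sets on each of the 12 arrays, with bars for the group mean ± SD (n = 3) and a dashed line at the filter level, 28.0. Cbln2 1374280_at is lower at 6 h in both treatments, and the other probe sets lie below 28.0 on every array.

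GW5074 and low potassium were then compared at each time. At 3 h, 0 of the 3 tested member probe sets passed, and 0% of all probe sets did (limma, no pairs). At 6 h the count was again 0 of 3, against 0%. The count of members at an unadjusted p under 0.05 was 0 at both times. Of all 18625 probe sets, 299 were under it at 3 h and 895 at 6 h.

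The intervals give the differences that remain possible. At 3 h, Cbln1 differed by -0.14 (-0.49 to 0.21) on 1376873_at and by -0.23 (-0.84 to 0.38) on 1390869_at. At 6 h the Cbln1 differences were 0.05 (-0.29 to 0.40) and 0.07 (-0.54 to 0.68). Those of Cbln2 were -0.30 at 3 h and -0.44 (-1.25 to 0.38) at 6 h. Without both 6 h arrays of letter B, the 6 h differences of Cbln1 were 0.09 on 1376873_at (limma adjusted p = 0.959, paired 0.647) and 0.06 on 1390869_at (0.977, paired 0.829). Every interval printed here from the fit without pairs includes 0, which does not show that the treatments act alike. With the letters as pairs, the 3 h intervals of Cbln1 were -0.27 to -0.0082 on 1376873_at and -0.39 to -0.07 on 1390869_at. Both lie below 0 and are not adjusted for the number of probe sets tested. The paired 6 h intervals were -0.08 to 0.19 and -0.09 to 0.23. Those of Cbln2 with pairs were -0.82 to 0.22 at 3 h and -0.96 to 0.09 at 6 h.

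With the letters as pairs within each time, 0 of 3 members passed at 3 h, where 0.0161% of all probe sets did, and 0 of 3 at 6 h, where 1.87% did. That 6 h share is 348 probe sets, and the number depended on how the pairs entered. It was 103 with the pair as a random block, 57 without 6 h pair A, 7 with a block by letter and 1 without the mean-variance trend. At an unadjusted p under 0.05 the paired counts of members were 2 at 3 h and 0 at 6 h. Of all 18625 probe sets, 1225 were under it at 3 h and 3034 at 6 h. The 2 members were both probe sets of 1 gene, Cbln1, lower with GW5074 in 3 of 3 pairs. For 1376873_at the differences at 3 h were -0.22, -0.05 and -0.16 in pairs A, B and C (limma adjusted p = 0.742). For 1390869_at they were -0.36, -0.02 and -0.32 (limma adjusted p = 0.658), so neither held after adjustment.

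For Cbln2 the pairs differed by 0.20, -0.31 and -0.79 at 3 h and by -0.82, 0.41 and -0.89 at 6 h, so pair B had the opposite sign to A and C at 6 h. Without both 6 h arrays of letter B the Cbln2 difference at 6 h was -0.85 in place of -0.44. Leaving out the pair of opposite sign built in this shift, which adds no support. The limma adjusted p of the difference was then 0.827 without pairs and 0.0995 with them, against 0.983 and 0.408 on all arrays.

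At 6 h the pairs of 1390869_at differed by 0.05, 0.08 and 0.08, and those of 1376873_at by 0.11, -0.03 and 0.08. The test of the difference between the GW5074 effects at the 2 times gave 0.19 for 1376873_at and 0.30 for 1390869_at. None of the 3 members passed it, against 0% of all probe sets without pairs and 0.177% with them. The paired limma adjusted p was 0.35 and 0.238. At an unadjusted p under 0.05 the count of members was 0 without pairs and 2 with them, both of Cbln1. Of all 18625 probe sets, 644 were under it without pairs and 2506 with them. For Cbln2 the difference was -0.14 (limma adjusted p = 1, paired 0.915).

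**Figure D4:**
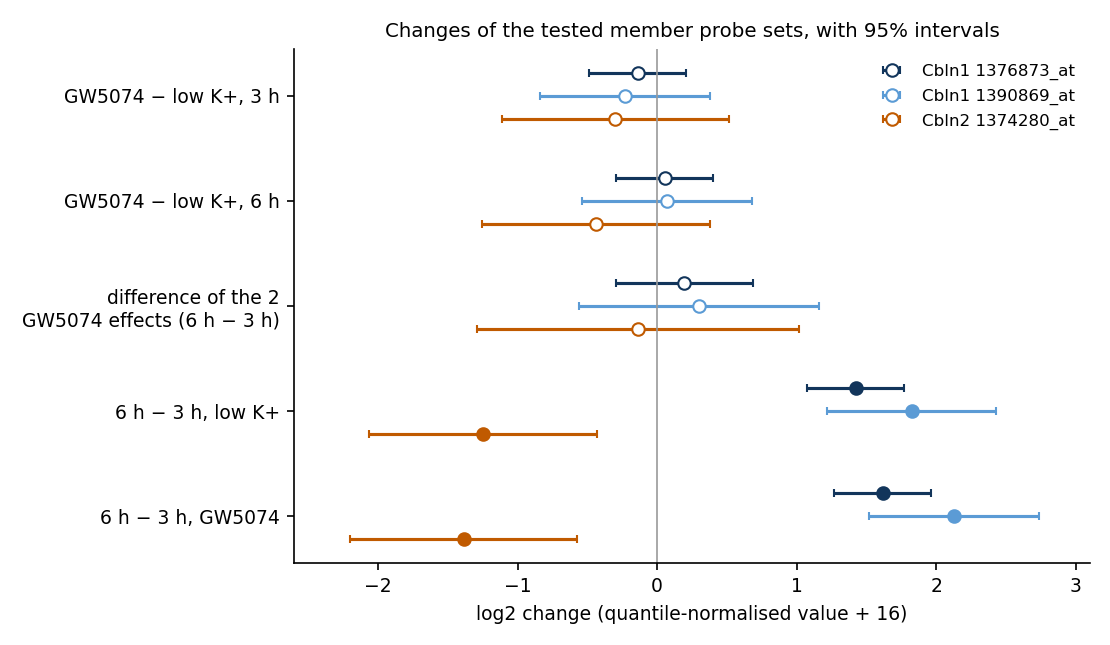
Log2 changes of the 3 tested member probe sets in each comparison, from the fit without pairs, with 95% intervals and filled points for an adjusted p under 0.05. Both changes over time are filled for Cbln1 and Cbln2, and the GW5074 differences are open with intervals across 0.

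Of 12 listed partners of cerebellins and delta receptors, 6 had a probe set and 5 were tested. From 3 h to 6 h in low potassium 1 rose and 0 fell, with a median change of 0.18, and with GW5074 2 rose and 0 fell, with a median of 0.58. Of all probe sets tested, 11.6% and 13.1% rose, and the medians were -0.0028 and -0.0036. Without both 6 h arrays of letter B, 2 rose and 1 fell in low potassium and 3 rose with GW5074.

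Nrxn2, which encodes a presynaptic neurexin, rose by 0.65 in low potassium (limma adjusted p = 0.0237) and by 0.96 with GW5074 (0.00271). The low-potassium call ended without LK 3 h A, LK 3 h B, LK 6 h A or LK 6 h C. Adgrb3, a receptor for C1q-like proteins, rose by 0.58 with GW5074 (limma adjusted p = 0.0245) and changed by 0.18 in low potassium (0.471). Its GW5074 call ended without GW 3 h A or any one of the GW 6 h arrays.

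C1ql1, a C1q-like ligand of Adgrb3, changed by 0.72 in low potassium (limma adjusted p = 0.187) and by 0.76 with GW5074 (0.163). Its 6 h arrays of letters A and C read 114 to 158, while those of letter B read 36.6 and 43.5, near the 3 h range of 42.9 to 56.0. Without both letter B arrays, its lowest at 6 h, it changed by 1.25 (limma adjusted p = 0.000233) and 1.14 (0.000417). Larger changes without those arrays were built in and add no support. Another neurexin gene, Nrxn3, changed by -0.59 in low potassium (limma adjusted p = 0.129) and by -0.15 with GW5074 (0.726), and a second Nrxn3 probe set changed by 0.65 in low potassium. Without the letter B arrays, its highest at 6 h, the first changed by -0.92 in low potassium (limma adjusted p = 0.00814). That larger fall was likewise built in. Gopc, a scaffold that binds delta receptors, had values of -0.00011 and -0.13.

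Among 31 other listed synaptic organisers, 17 of the 21 with a probe set were tested. In low potassium 5 rose and 1 fell from 3 h to 6 h, with a median of 0.33. With GW5074 8 rose and 0 fell, with a median of 0.50. Of all probe sets tested, 11.6% rose and 11.0% fell in low potassium, and 13.1% and 11.9% with GW5074. The medians of all were -0.0028 and -0.0036. Flrt3, an adhesion protein that binds latrophilins, rose by 1.34 in low potassium (limma adjusted p = 0.00213) and 1.17 with GW5074 (0.00365). In the 12 fits that each left out 1 array, 3 rose in low potassium without LK 3 h A, LK 3 h B, LK 6 h A or LK 6 h C, and 6 to 9 rose with GW5074. Lrrc4b, a postsynaptic adhesion protein, rose by 0.60 (limma adjusted p = 0.00392) and 0.83 (0.000537). Lrrc4, a related adhesion protein, rose by 1.10 in low potassium (limma adjusted p = 0.00835). With GW5074, Clstn1, a calsyntenin, rose by 0.70 (limma adjusted p = 0.00233) and Efna5, an ephrin ligand, by 0.88 (0.00317). Adgrl2, a latrophilin, fell by 0.97 in low potassium (limma adjusted p = 0.0274), a call that ended without LK 3 h A, B or C or LK 6 h A or C.

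Between treatments, 0 of the 5 tested partners passed at either time, with or without pairs. Of the 17 other organisers 0 passed without pairs, and 2 were higher with GW5074 at 6 h with pairs. Of all probe sets tested, 0% passed without pairs at either time. With pairs 0.0161% passed at 3 h and 1.87% at 6 h. Clstn1 differed by 0.33 (paired limma adjusted p = 0.0214), and Ptprf, a receptor phosphatase that binds postsynaptic partners, by 0.47 (0.0225). Without the 6 h pair A these were 0.26 (limma adjusted p = 0.216) and 0.48 (0.13). The Clstn1 call also ended without 6 h pair C (0.0563), and that of Ptprf without 6 h pair B (0.0655) or C (0.0925). Both calls ended without the mean-variance trend (limma adjusted p = 0.255 and 0.184) and with a block by letter (0.529 and 0.362). With the pair as a random block the limma adjusted p was 0.102 for Clstn1 and 0.0401 for Ptprf. A second Ptprf probe set above the filter changed from 3 h to 6 h by 0.41 in low potassium and 0.53 with GW5074. The Ptprf probe set used here changed by -0.18 and 0.55, so their signs differed in low potassium. The treatment difference at 6 h on the second Ptprf probe set is not given here.

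Several markers of granule neurons also rose from 3 h to 6 h. Of 12 tested, 5 rose in low potassium and 10 with GW5074, and 0 fell, where 11.6% and 13.1% of all probe sets tested rose. Without LK 3 h B or LK 6 h C, 3 rose in low potassium, and without GW 3 h B or GW 6 h C, 6 rose with GW5074. Without both 6 h arrays of letter B, 5 and 10 rose. Rbfox3, which encodes the neuronal protein NeuN, rose by 1.44 in low potassium (limma adjusted p = 7.5e-05), and Neurod1, a granule neuron transcription factor, by 1.21 (0.000267). Gabra6, a GABA receptor subunit of mature granule neurons, rose by 1.86 (0.00179) and the transcription factor gene Pax6 by 0.44 (0.0177). Those that did not pass in low potassium had values from -0.09 (Neurod2) to 0.46 (Zic1). The summed intensity of the 12 markers was 8203 to 10307 in low potassium and 7519 to 9407 with GW5074 at 3 h. At 6 h it was 11888 to 14139 and 13207 to 15896, above the 3 h ranges.

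Some markers of other cell types also passed the test over time. Of all probe sets tested, 22.7% passed in low potassium and 25.0% with GW5074. Among 7 tested for astrocytes and Bergmann glia, 1 rose in each treatment, and the medians were 0.07 and -0.01. It was Gfap, an intermediate filament of astrocytes, which rose by 1.87 in low potassium (limma adjusted p = 0.00808) and 1.92 with GW5074 (0.00648). Among 9 for Purkinje and GABAergic neurons, 1 fell in low potassium, and 2 fell and 1 rose with GW5074. Pvalb, a calcium-binding protein of Purkinje cells and interneurons, fell by 1.17 (limma adjusted p = 0.000967) and 1.52 (0.000187).

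With GW5074, Car8 of the Purkinje list also changed by -0.57 (limma adjusted p = 0.0448), a call lost in 8 of the 12 fits that left out 1 array, and Itpr1 rose by 0.56 (0.0354), a call lost without GW 3 h A, GW 3 h B, GW 6 h A or GW 6 h C. Cnp, a myelin enzyme, was the 1 of 7 oligodendrocyte lineage markers that fell, by 0.66 (limma adjusted p = 0.00687) and 0.61 (0.00906). None of the 5 tested for microglia or the 3 for endothelial cells and fibroblasts passed.

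The Purkinje and GABAergic markers summed to 2676 to 3354 over the 3 h arrays and 2574 to 3645 over the 6 h arrays. Those of astrocytes and Bergmann glia summed to 1793 to 2325 and 2995 to 4742, a sum that holds Gfap, whose intensity ran from 357 to 2764 over the arrays. Sums for the oligodendrocyte lineage were 2677 to 3982 at 3 h and 1891 to 2788 at 6 h. Those of microglia were 368 to 768 and 381 to 709, and those of endothelial cells and fibroblasts 143 to 274 and 142 to 306. Above the filter were 9 of 9 markers of Purkinje and GABAergic neurons, 7 of 8 of astrocytes and Bergmann glia, 7 of 9 of the oligodendrocyte lineage, 5 of 8 of microglia and 3 of 7 of endothelial cells and fibroblasts. Below it were Slc1a2, Olig2, Cspg4, Aif1, Itgam, Cx3cr1, Pecam1, Cldn5, Dcn and Lum. The part of these markers in the changes of Cbln1 and Cbln2 was not tested.

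**Figure D5:**
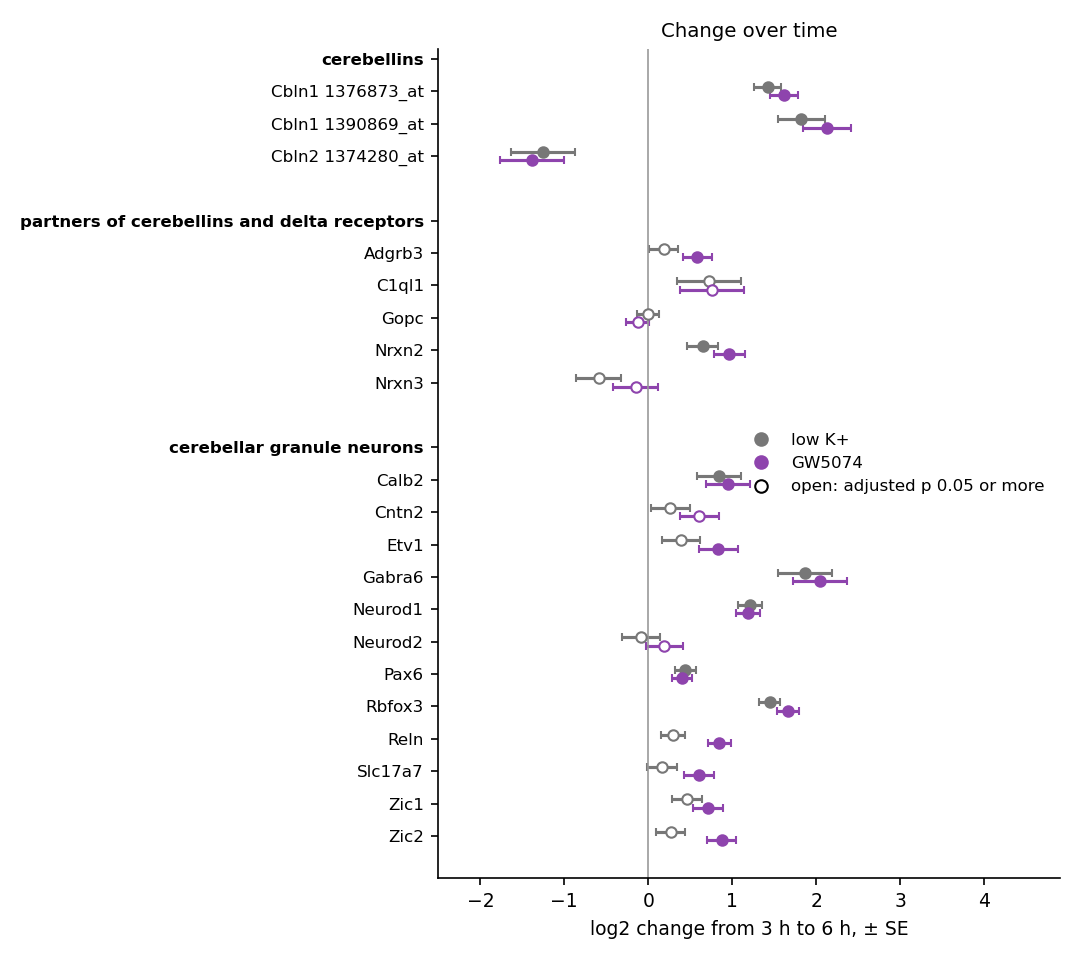
Log2 change from 3 h to 6 h, with its SE, for the tested cerebellin probe sets, their partners and the granule neuron markers, in low potassium and with GW5074. Filled points have an adjusted p under 0.05, and Cbln1 lies to the right with Gabra6 and Rbfox3 while Cbln2 lies to the left.

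Over the 12 arrays and 10260 genes compared, the profiles most like that of Cbln1 1376873_at were Mindy2 (Pearson r = 0.995), Mab21l1 (0.995) and Igsf21 (0.994), given as a description. An r of at least 0.9 was reached by 643 genes, 6.27% of those compared, and these arrays share the split between 3 h and 6 h. Mindy2 changed from 3 h to 6 h by 1.49 in low potassium, Mab21l1 by 1.62 and Igsf21 by 1.87. For Cbln2 the most alike were Mdfi (r = 0.977), C5h1orf122 (0.974) and Des (0.963), and 116 genes, 1.13%, reached 0.9. In low potassium Mdfi changed from 3 h to 6 h by -0.35, C5h1orf122 by -0.32 and Des by -0.46. These were smaller changes than the -1.25 of Cbln2.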

How the data were processed

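Each of 31099 probe sets on an Affymetrix rat array has 1 deposited linear intensity on each of 12 arrays. The authors scaled the arrays to a common trimmed mean of 150.0 to 150.1, as the values show (2% trimmed at each end). How probes were summarised, and with which software, is not stated. Symbols come from the platform table, updated by Entrez identifier through a rat gene table (GRCr8) used only for names: 20826 probe sets have 1 symbol, 436 several and 9780 none.

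Here the values were quantile-normalised, 16 was added and log2 taken. Probe sets with a mean at or above the 40th percentile were tested with limma 3.58.1 in R 4.3.3 (4 group means, mean-variance trend, two-sided, no block, Benjamini-Hochberg over 18625 probe sets, threshold 0.05). The procedure was tested on simulated data. Figures used matplotlib 3.10.9.

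The letters A, B and C in the labels gave a paired alternative, a replicate block within time. After removal of group means, arrays of a letter correlated by 0.425, 0.210 and 0.542 at 3 h and 0.293, 0.650 and 0.572 at 6 h, each over 0.1, so the letters were treated as pairs.

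Every member probe set is named. In the lists up to 4 genes are named per comparison by the smallest p of the paired fit, or, over time, where that fit gives none, of the fit without pairs; all tested partners are named. Among cell type markers, which that rule does not cover, the 4 granule markers with the smallest p in low potassium and the called markers of other cell types are named, chosen after their values were seen. Members and lists were chosen with earlier results of these data known. Alternatives covered pairing, normalisation, pseudocount, filter, spread, array weights and each array left out. No sequence is printed.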

Additional observations from a re-analysis of the deposited data

Results flagged for a closer look

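Cbln1 1390869_at differed between GW5074 and low potassium in opposite directions at the times: lower with GW5074 in all 3 pairs at 3 h (mean -0.23 on the log2 scale) and higher in all 3 pairs at 6 h (mean 0.0702). The test of the difference between the times gave 0.30, with a limma adjusted p of 1 without pairs and 0.238 with them. The difference had the other sign, at -0.0401, without LK 6 h B.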

How the results depend on the processing

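The counts of member probe sets called stayed within 1.5 times the main count in every alternative run, and no member was called between GW5074 and low potassium in any of them. The Cbln1 rises over time stayed called in 23 of 23 alternatives, from 1.31 to 1.56 and 1.65 to 2.17 in low potassium and from 1.52 to 1.80 and 1.96 to 2.47 with GW5074. The Cbln2 fall stayed called in 17 of 22 alternatives in low potassium and 19 of 22 with GW5074. In low potassium it was also lost with a pseudocount of 1 (limma adjusted p = 0.1) and with no filter (0.0533).

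Signs turned only for values that were not called. For the difference between the GW5074 effects on Cbln2, the paired fit (replicate block) gave 0.11 without 3 h pair A, 0.0554 without 6 h pair A and 0.0862 without 6 h pair C, and a pseudocount of 64 gave 0.0392. Leaving out 1 array gave -0.58 to 0.31. For GW5074 minus low potassium at 6 h, leaving out 1 array gave -0.0801 to 0.23 for Cbln1 1376873_at, -0.27 to 0.41 for 1390869_at and -0.88 to 0.0088 for Cbln2. The difference between the effects on 1390869_at ranged from -0.0401 to 0.64. The cause was not tested.

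The replicate block changed no member's call. A block within time cannot give a change from 3 h to 6 h, so there only a block by letter and a random block were run. Over all probe sets, calls from 3 h to 6 h numbered 4223 in low potassium (2193 without LK 3 h B) and 4664 with GW5074 (2457 without GW 6 h A, 9029 with array weights). Paired calls of the difference between the effects numbered 33, or 142 without both letter B arrays. Leaving out both 6 h arrays of letter B was chosen after seeing the data. Cbln2 and Grid1 are limited by intensities near or below the filter.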
